A study of Homo sapiens with 8 samples.

Results

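The kinetochore is the protein assembly that forms on the centromere of each chromosome and holds it to spindle microtubules during mitosis. Its inner layer lies on nucleosomes that contain CENPA, its outer layer of the KNL1, MIS12 and NDC80 complexes binds the microtubule, and the spindle checkpoint kinases and their partners hold back anaphase until every kinetochore is attached. Most of these genes are transcribed in the late part of the cell cycle, so that their mRNA level in a population of tumour cells is widely used as a sign of proliferation. Kinetochore and checkpoint genes were taken here as 31 named genes out of 19775 genes with a probe set of 1 gene symbol. Each was represented by the brightest of its probe sets over the 8 arrays. All 31 were measured, and all 31 passed the filter on signal, a mean log2 signal of at least 6.01, which left 12300 genes for the tests.

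The arrays came from 4 established lung cancer cell lines, of which A549 and H460 carry a K-Ras mutation and H1650 and H1975 an EGFR mutation. From each line, 1 array was made of the side population (SP), the cells that pump out Hoechst dye, and 1 of the main population (MP), the cells that keep the dye. No line carried a treatment beyond the dye staining and the viability dye used for the sort, and the line is the replicate, since no line has a second array of the same population. The label of H1650 was kept as deposited. ABCG2, the dye transporter, had an SP-to-MP log2 ratio of 1.08 in the A549 pair, 0.36 in the H460 pair, 1.17 in the H1975 pair and -0.70 in the H1650 pair, so directions in H1650 rest on which of its arrays is SP. Results that rest on them are given below with the 2 H1650 arrays exchanged too, a setting chosen after seeing the data, in which calls are a description and not support for either labelling. Of 9 markers of lung epithelium 8 lay above the filter, and their summed linear signal spanned 33964 to 75137 on the SP arrays and 33833 to 74165 on the MP arrays. Fibroblast markers, of which 5 of 6 lay above the filter, summed to between 1236 and 8733 on SP arrays and between 978 and 9105 on MP arrays, while 1 of 4 leukocyte markers and 1 of 3 endothelial markers lay above it. Among the 5 fibroblast markers above the filter, COL1A2 and COL3A1 were higher in SP of H1650 by 3.31 and 1.38 on the log2 scale, the other 3 differed there by less than 2-fold, and LUM was -1.19 in H1975. The part of these levels in the results was not tested. In sorted populations, fewer cycling cells and less RNA of these genes per cell cannot be told apart.

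The RefSeq table (GRCh38.p14) held promoters for 25 of the 31 genes, and TTK, BUB3, CENPH, CENPL, CENPM and KNL1 were without an entry. Because the members moved together, promoters are shown for the 2 of the 25 whose difference between SP and MP set H1650 most apart from the other lines and the 2 where it did so least, with labels as deposited. Each stretch runs from 250 bases before the transcription start to 10 bases after it, 5′ to 3′ on the gene's strand, and capitals mark the motif letters given below. SKA1, a subunit of the complex that keeps kinetochores on shrinking microtubules, lies on the plus strand and the stretch is chr18:50374796-50375055. NDC80, the microtubule-binding subunit of the complex of the same name, lies on the plus strand with chr18:2571307-2571566. NSL1 and DSN1, both subunits of the MIS12 complex, lie on the minus strand with chr1:212791768-212792027 and chr20:36773754-36774013.
SKA1: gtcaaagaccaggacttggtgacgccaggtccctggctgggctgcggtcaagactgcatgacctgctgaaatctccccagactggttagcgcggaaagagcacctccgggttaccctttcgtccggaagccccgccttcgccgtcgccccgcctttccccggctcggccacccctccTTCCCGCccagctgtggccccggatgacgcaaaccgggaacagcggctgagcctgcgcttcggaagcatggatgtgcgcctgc
NDC80: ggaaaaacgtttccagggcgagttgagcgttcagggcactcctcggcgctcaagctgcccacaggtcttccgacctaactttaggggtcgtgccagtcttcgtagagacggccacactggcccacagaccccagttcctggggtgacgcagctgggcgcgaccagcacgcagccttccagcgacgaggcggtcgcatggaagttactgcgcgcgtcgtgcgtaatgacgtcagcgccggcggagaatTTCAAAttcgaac
NSL1: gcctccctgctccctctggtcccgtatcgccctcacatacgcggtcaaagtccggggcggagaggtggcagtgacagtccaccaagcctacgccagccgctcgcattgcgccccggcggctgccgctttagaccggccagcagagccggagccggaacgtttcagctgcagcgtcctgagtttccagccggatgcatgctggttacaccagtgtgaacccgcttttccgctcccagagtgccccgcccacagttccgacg
DSN1: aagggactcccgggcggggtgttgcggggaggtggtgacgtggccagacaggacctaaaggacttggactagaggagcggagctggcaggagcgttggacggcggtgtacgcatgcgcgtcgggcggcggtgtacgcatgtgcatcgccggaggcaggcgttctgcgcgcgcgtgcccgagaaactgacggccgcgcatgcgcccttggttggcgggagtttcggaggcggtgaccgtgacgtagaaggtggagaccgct

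Motif letters were searched on both strands in the 300 bases from 250 before to 50 after each start. These were TTTGAA, the core of the cell cycle genes homology region (CHR) that DREAM and B-MYB complexes bind, CCAAT, the box bound by NF-Y, and TTCCCGC as an E2F site, with TTCGCGC as another form of it, TTGGCGC as a further form of the site and TTGCCGC as the last form of the site. Matches of different motifs on shared bases were each counted. The CHR letters were in the window of 13 of 25 genes (52.0%), against 18.2% of the 27305 genes with a RefSeq promoter. In the 50 bases after the start alone they were in 6 of 25 (24.0%) against 2.74%, and in the 250 bases before it in 5 of 25 (20%) against 16.1%. CCAAT was in 16 of 25 (64.0%) against 39.7%, an E2F form in 9 of 25 (36.0%) against 15.3%, and CHR letters together with CCAAT in 7 of 25 (28.0%) against 8.37%. A match is a run of letters and not a measured binding site. The CHR letters of 6 genes are shown in 30 bases around the match nearest the start, for the 4 of the 13 genes with the largest and the 2 with the smallest difference between H1650 and the other lines, with TTTGAA or its reverse complement TTCAAA in capitals.
SKA1: ggcgcggcgggcggTTTGAAttttgcttac
NDC80: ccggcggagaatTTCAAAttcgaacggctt
SPC25: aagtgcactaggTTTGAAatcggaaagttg
BUB1B: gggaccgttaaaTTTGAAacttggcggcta
MAD2L1: tgcgtcgttactTTTGAAacgcttggcggg
CENPN: gcaattggtggcTTTGAAggcgcggcgagc

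SPC25 is a subunit that anchors the NDC80 complex, BUB1B and MAD2L1 are inhibitors of the anaphase-promoting complex, and CENPN is an inner kinetochore protein that binds CENPA nucleosomes. The windows lie at chr18:50375066-50375095, chr18:2571542-2571571, chr2:168890416-168890445, chr15:40161034-40161063, chr4:120066807-120066836 and chr16:81007205-81007234 in this order. The 13 genes with the letters had a median difference in the SP over MP log2 ratio, H1650 minus the other 3 lines, of -1.06, and the 12 without them of -0.79. The ranges overlapped, from -2.01 to -0.36 and from -1.30 to -0.12, and this split was not tested.

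In A549, H460 and H1975 most kinetochore and checkpoint genes had the higher signal in SP, and in H1650 every one of the 31 had the lower signal in SP. The SP value was the higher in 26 of 31 members in A549, where 50.5% of all genes tested were higher, in 26 of 31 in H460 against 45%, and in 30 of 31 in H1975 against 45.3%. In H1650 it was the lower in 31 of 31, against 51.2% of all genes, and with its arrays exchanged it would be the higher in 31 of 31. The pattern of higher in the first 3 lines and lower in H1650 held for 20 of 31 members and for 13.5% of all genes. The median log2 ratio of the members was 0.36 for A549, 0.26 for H460, 0.64 for H1975 and -0.43 for H1650, whereas the medians over all genes were 0.0039, -0.029, -0.036 and -0.0072. With 1 array per population these within-line values have no test. At least 2-fold higher in SP were 2 members in A549, CENPL and SGO2, where 2.87% of all genes were, 1 in H460, CENPL (1.98%), and 5 in H1975, CENPI, NDC80, NUF2, SPC25 and SGO2 (1.78%). At least 2-fold lower in SP of H1650 were NDC80, SPC25 and SKA1 (2.02% of all genes).

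**Figure D1:**
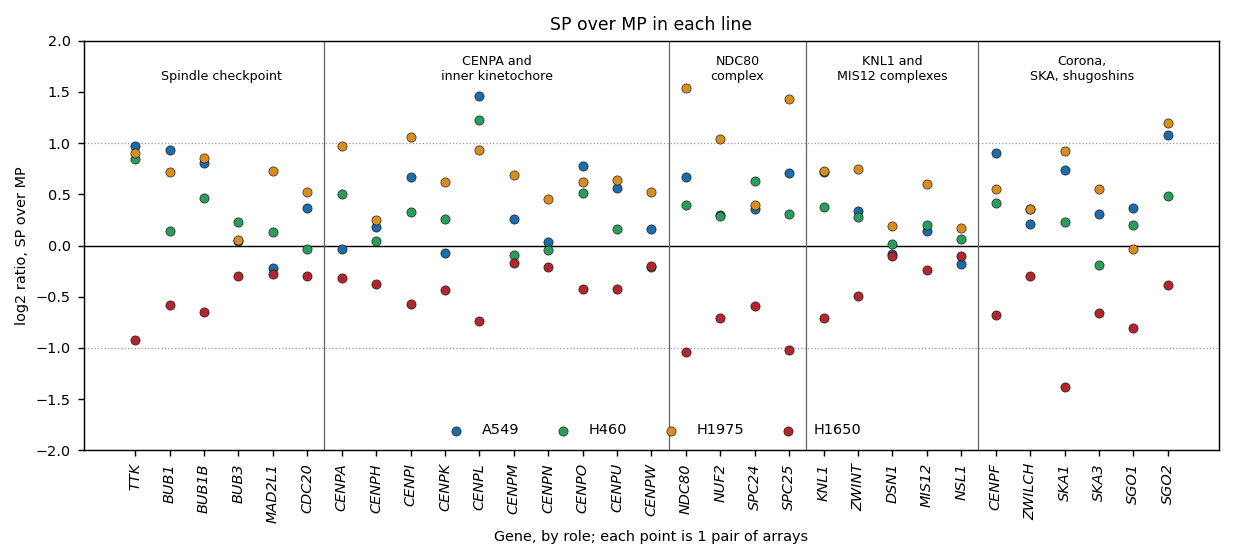
SP-to-MP log2 ratio (y axis) of the 31 genes (x axis, grouped by role), with 1 point per cell line, each from 1 pair of arrays, and dotted lines at 2-fold. All red points of H1650 lie below 0, from -1.38 to -0.10, and most points of the other 3 lines lie above it.

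Over all 4 lines the test of SP against MP called 0 of 31 members, as it called 0% of the 12300 genes (limma, cell line as a block, Benjamini-Hochberg adjusted p under 0.05). Before adjustment, p was under 0.05 for 1 member and 372 genes. That member was SGO2, with a mean of 0.59 and an SD over the lines of 0.72 (limma adjusted p = 0.945, unadjusted p = 0.0455). The mean over the 4 lines was above 0 for 29 of 31 members, against 5581 of the 12300 genes. The exceptions were NSL1 at -0.011 and SGO1 at -0.066, and the median was 0.20 against -0.017 for all genes. The count of 29 rested on H1975, since without that line 17 of 31 means were above 0 and the median was 0.012. Without H1650, TTK and CENPL passed the threshold. With the H1650 arrays exchanged, all 31 means were above 0, with a median of 0.44, and 7 members were called higher, TTK, BUB1B, CENPL, CENPO, KNL1, ZWINT and CENPF, against 1.56% of all genes.

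A549, H460 and H1975 were also fitted alone, a fit chosen because H1650 was known to run the other way. All 31 means were then above 0, against 5527 of the 12300 genes, with a median of 0.45 against -0.026 for all genes. Of 31 members 2 were called higher in SP, TTK and CENPL, against 0.187% of all genes, and before adjustment 18 had p under 0.05, against 8.12%. Without A549 or without H460 neither gene was called, and without H1975 both were. They were also lost when the cell line was not a block or the variance had no trend with signal, and quantile normalization kept TTK only. Since every member was lower in SP of H1650, 0 members were higher in SP in all 4 lines, against 402 of the 12300 genes. None was lower in all 4 lines either. With the H1650 arrays exchanged, the 20 members counted above, and 13.5% of all genes, were higher in SP in all 4 lines.

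Among the 6 checkpoint genes the median of the 3-line mean was 0.44 and the median log2 ratio in H1650 was -0.44. TTK (MPS1, chr6:80004649-80042527 in GRCh38.p14), the kinase that starts checkpoint signalling at unattached kinetochores, had log2 signals of 10.31 in SP and 9.34 in MP of A549, 10.32 and 9.47 in H460, 10.66 and 9.76 in H1975, and 8.94 and 9.87 in H1650. The 3 SP values of the first lines all lay above their 3 MP values, and the H1650 SP value was the lowest of all 8. The change in the 3 lines was 0.90 ± 0.061 (SD, n = 3 lines, standard error 0.11, limma adjusted p = 0.0360), a 1.87-fold difference with a smaller spread between lines than for BUB1 or BUB1B. BUB1, a kinase that recruits further checkpoint proteins, had 9.98 in SP and 9.05 in MP of A549, 10.91 and 10.77 in H460, 10.63 and 9.91 in H1975, and 9.99 and 10.58 in H1650. Its 3-line mean of 0.60 did not pass (limma adjusted p = 0.199), and its mean over all 5 probe sets, of which 3 lay below the filter, was -0.27. BUB1B (BUBR1) had 10.79 and 9.99, 11.48 and 11.02, and 10.67 and 9.82 in SP and MP of the same 3 lines and 10.30 and 10.95 in H1650. Its 3-line mean was 0.71 (standard error 0.11, limma adjusted p = 0.0742), and it passed the threshold, as did SGO2, with a pseudocount or with arrays moved to the same median. MAD2L1, BUB3 and CDC20, the partners that form the inhibitor and its target, had smaller differences. MAD2L1 had log2 ratios of -0.22, 0.14, 0.73 and -0.27 in A549, H460, H1975 and H1650, BUB3 of 0.05, 0.23, 0.05 and -0.30, and CDC20, the activator of the anaphase-promoting complex that the checkpoint holds, of 0.37, -0.03, 0.53 and -0.30.

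Of the 10 inner kinetochore genes, CENPL passed the 3-line test, and the median of the 10 means was 0.37, with -0.40 in H1650. CENPL (chr1:173799550-173824883), a partner of CENPN in binding CENPA nucleosomes, had log2 signals of 9.06 in SP and 7.59 in MP of A549, 9.81 and 8.59 in H460, 9.90 and 8.96 in H1975, and 9.31 and 10.04 in H1650. Every SP value of the first 3 lines exceeded every MP value of those lines, and the highest value of the 8 was the H1650 MP array. The 3-line mean was 1.21 ± 0.26 (SD, n = 3 lines, standard error 0.15, limma adjusted p = 0.0472), or 2.31-fold. Its probe set is of a kind that can bind other transcripts, and the other CENPL probe set, a dimmer one, had log2 ratios of 1.38, 0.78, 0.44 and -0.55 in A549, H460, H1975 and H1650. CENPN itself had 0.04, -0.05, 0.46 and -0.21. CENPI, CENPO and CENPU had 3-line means of 0.69, 0.64 and 0.45 without passing (limma adjusted p = 0.246, 0.123 and 0.188), and CENPA, the histone variant that marks the centromere, had -0.03, 0.50, 0.97 and -0.32. CENPH, CENPK, CENPM and CENPW had 3-line means of 0.16, 0.27, 0.28 and 0.15. The only probe sets of CENPA and CENPH are, as for CENPL, of the kind that can bind other transcripts.

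The 4 subunits of the NDC80 complex, which grips the microtubule, had the highest median of the 5 role groups in the 3 lines, 0.68, and the lowest in H1650, -0.86. All 4 were higher in SP in each of the first 3 lines. NDC80 (chr18:2571557-2616635), whose promoter is printed above, had log2 signals of 8.68 in SP and 8.01 in MP of A549, 9.36 and 8.97 in H460, 9.88 and 8.34 in H1975, and 10.02 and 11.07 in H1650. The H1650 MP array was the highest and both A549 arrays were among the lowest 3. SPC25 had 9.30 and 8.59 in A549, 10.91 and 10.60 in H460, 9.68 and 8.24 in H1975, and 9.18 and 10.21 in H1650. The range of the line levels, 2.20 for NDC80 and 1.81 for SPC25, exceeded each difference between SP and MP. None of the 4 passed the 3-line test (limma adjusted p = 0.192 for NDC80, 0.228 for NUF2, 0.203 for SPC24 and 0.188 for SPC25), with means of 0.87, 0.55, 0.46 and 0.82. NUF2, the partner of NDC80 in microtubule binding, had its largest log2 ratio in H1975, 1.04, as did NDC80 with 1.54 and SPC25 with 1.43.

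The 5 genes of the KNL1 and MIS12 complexes, which bridge the inner kinetochore and NDC80, had a median of 0.31 in the 3 lines and of -0.24 in H1650, and the differences were uneven among them. KNL1, the scaffold for BUB1 and BUB1B, had log2 ratios of 0.72, 0.38, 0.73 and -0.71 in A549, H460, H1975 and H1650, and its partner ZWINT had 0.34, 0.28, 0.75 and -0.50. DSN1 had log2 signals of 10.29 in SP and 10.38 in MP of A549, 10.25 and 10.23 in H460, 10.74 and 10.55 in H1975, and 11.25 and 11.35 in H1650. NSL1 had 11.49 and 11.67, 12.04 and 11.98, 11.80 and 11.62, and 11.35 and 11.45 in the same order. SP and MP of a line were close for both genes, and the 3-line means were 0.04 and 0.02 (limma adjusted p = 0.889 and 0.952). MIS12 had a mean of 0.31.

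The 6 genes of the corona, the SKA complex and the shugoshins had a median of 0.46 in the 3 lines and of -0.67 in H1650. SKA1 (chr18:50375046-50394168) had log2 signals of 8.60 in SP and 7.86 in MP of A549, 8.62 and 8.39 in H460, 8.68 and 7.76 in H1975, and 7.29 and 8.68 in H1650. The H1650 MP value was level with the SP values of the other lines and the H1650 SP value was the lowest of all, 2.61-fold below its MP partner. The 1 probe set of SKA1 is also of the kind that can bind other transcripts. SGO2, a protector of centromeric cohesion, had 10.35 and 9.27 in A549, 10.63 and 10.15 in H460, 10.72 and 9.53 in H1975, and 9.54 and 9.92 in H1650. Its 3-line mean was 0.92 (standard error 0.15, limma adjusted p = 0.0780), and its second probe set, with 0.58, 1.20, 0.96 and 0.32, was higher in SP in H1650 too. SGO1, the dimmest member (7.04 on average over the arrays), had ratios of 0.37, 0.20, -0.03 and -0.81 on the log2 scale. CENPF, a large corona protein, had a 3-line mean of 0.62 (limma adjusted p = 0.104), ZWILCH of the RZZ complex 0.31 and SKA3 0.22.

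**Figure D2:**
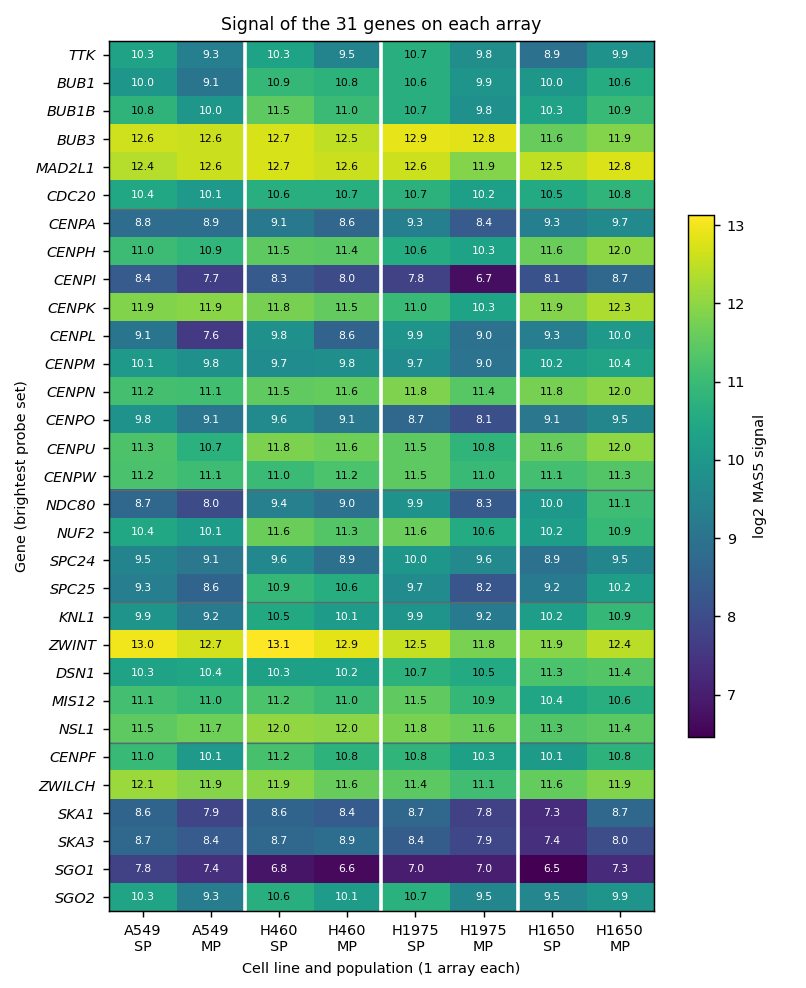
Log2 MAS5 signal of each of the 31 genes (rows, grouped by role) on each of the 8 arrays (columns, SP and MP of each line), printed in each cell and coloured from dark (low) to yellow (high). ZWINT, MAD2L1 and BUB3 were the brightest probe sets and SGO1 the dimmest, and SP exceeded MP in most cells of the first 3 lines but in none of H1650.

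Whether the SP effect differed between lines was tested as an interaction of population with 1 line against the other 3, where the single line has 1 pair and its spread is taken from the others. For H1650, TTK was the 1 member called, with a difference of -1.83 (standard error 0.22, limma adjusted p = 0.0454), against 0.26% of all genes called lower. At an unadjusted p under 0.05 there were 20 of 31 members against 12.1% of all genes, and the median difference was -0.95 for the members and 0.021 for all genes. The call of TTK was lost without A549 or without H460, and without H1975 TTK and CENPL were called. SKA1 had the largest difference, -2.01 (limma adjusted p = 0.105), followed by CENPL with -1.95 (0.0655), NDC80 with -1.91 (0.156) and SPC25 with -1.84 (0.150). NSL1 with -0.12, DSN1 with -0.14, CENPW with -0.35, CENPN with -0.36 and BUB3 with -0.41 had the smallest. This order and the call rest on the H1650 labels. With the arrays exchanged, 0 members and 0% of all genes were called, the differences ran from -0.54 to 0.75 with a median of 0.052, TTK had 0.019, SKA1 0.75, CENPL -0.47, NDC80 0.17 and SPC25 0.21, and 20 of 31 changed sign. For H1975 the test called 0 of 31 members and 0.0407% of all genes, with 6 members at an unadjusted p under 0.05 (4.54% of all genes), of which NUF2 had a difference of 1.08 and MAD2L1 of 0.85. For A549 and H460 it called 0 members and 0% of all genes, and before adjustment 0 members had p under 0.05, against 4.55% of all genes for A549 and 2.17% for H460.

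The order of the members was partly shared between lines. Across the 31 genes, the ratios in the pair of A549 and those in the pair of H460 gave r = 0.64 on the log2 scale, A549 with H1975 gave 0.52 and H460 with H1975 gave 0.38, against 0.25, 0.19 and 0.17 across all genes. The mean of these 3 lines and H1650 correlated with r = -0.64 across the members and -0.33 across all genes. The points share their arrays and their probe sets' signal range and are not independent, so these values are a description.

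**Figure D3:**
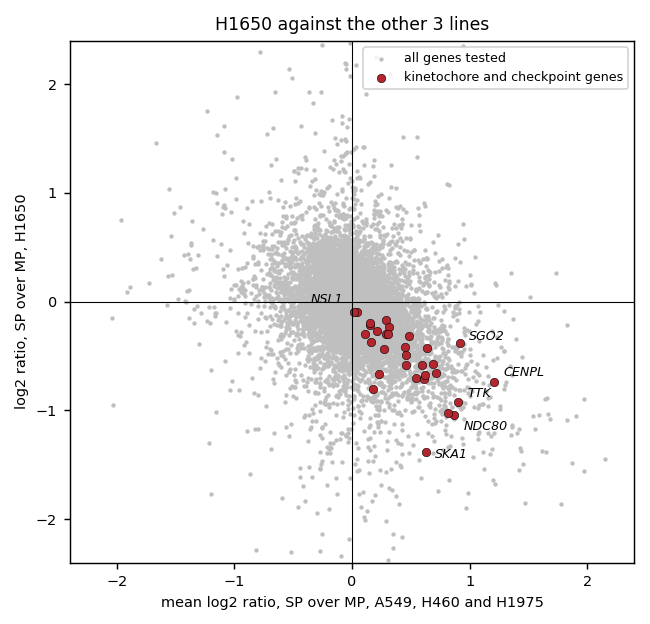
SP-to-MP log2 ratio in H1650 (y axis) against the mean log2 ratio of A549, H460 and H1975 (x axis), with 1 point per gene, members in red and the genes tested in gray, 30 of them outside the axes. All members lie right of 0 on the x axis and below 0 on the y axis, with NSL1 nearest the origin, CENPL farthest right and SKA1 lowest.

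The 31 genes had 64 probe sets in all, and 16 genes had 1 only. Over the 64, SP was higher for 51 in A549, for 51 in H460 and for 52 in H1975, and it was lower for 52 in H1650. Of 21 probe sets that were not the brightest of their gene but lay above the filter, 12 were higher in the 3 lines and lower in H1650 and 16 were lower in H1650. Of 12 below the filter these counts were 3 and 5. BUB3, for which 4 bright probe sets existed, had log2 ratios in H1650 of -0.30, -0.28, -0.14 and -0.05 with them.

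Levels between the lines, as the mean of SP and MP of a line, differed for 17 of 31 members by the F test of limma at an adjusted p under 0.05, against 76.3% of all genes, so that a smaller share of the members was called. The median range from the lowest to the highest line was 0.85 on the log2 scale for the members and 1.13 for all genes. SP and MP are the 2 values behind a line's level. The fit takes out the SP-to-MP difference common to the lines, so the spread within lines holds each line's departure from it. In H1650 the difference ran against the other lines, and its part in the count was not tested. The share of all genes was not counted in fits without 1 array, so moves there cannot be read as particular to the members. Leaving out 1 array moved the count. It was 6 without either A549 array, 7 without the SP and 8 without the MP array of H460, and 17 and 13 without those of H1975. Without the SP or MP array of H1650 it was 22 and 25.

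For A549, 1 of 31 members was higher than the mean of the other 3 lines (22.4% of all genes) and 4 were lower (21.3%). The higher one was ZWILCH by 0.43 (limma adjusted p = 0.0402), and the lower were BUB1 by -0.95, CENPN by -0.54, NDC80 by -1.26 and DSN1 by -0.39. The call of CENPN rests on its brightest probe set, since A549 differed by 0.54 and 0.52 with its other 2 bright probe sets and by 0.21 with the mean over all of them. For H460, 7 were higher (24.2%), BUB1, BUB1B, CENPH, NUF2, SPC25, ZWINT and NSL1, and 1 lower (26.8%), DSN1 by -0.52. SPC25 stood highest above the other lines, with line levels of 10.76 in H460, 9.70 in H1650, 8.96 in H1975 and 8.95 in A549, a difference of 1.55 (standard error 0.40, limma adjusted p = 0.0134). For H1975, 1 was higher (28.1%), BUB3 by 0.55, and 6 were lower (23.8%). The BUB3 call rests on a probe set of the kind that can bind other transcripts, and its other 3 bright probe sets gave 0.02, -0.21 and -0.45 for H1975. The lower 6 were CENPH, CENPI, CENPK, CENPM and CENPO of the inner kinetochore, and ZWILCH. The only probe set of CENPH, on which its calls in H460, H1975 and H1650 rest, is of this kind too. CENPH, CENPI, CENPK and CENPM belong to 1 subcomplex of the inner kinetochore, and the largest shortfall was that of CENPK, with 10.65 in H1975, 11.64 in H460, 11.90 in A549 and 12.10 in H1650, a difference of -1.23 (standard error 0.19, limma adjusted p = 0.00121). For H1650, 6 were higher (25.1%), CENPH, CENPK, CENPM, CENPN, NDC80 and DSN1, and 4 were lower (25.9%), BUB3, MIS12, NSL1 and SKA3. NDC80 had levels of 10.55 in H1650, 9.17 in H460, 9.11 in H1975 and 8.35 in A549, and the first differed from the mean of the others by 1.67 (standard error 0.41, limma adjusted p = 0.0118). BUB3 had 12.87 in H1975, 12.62 in A549 and 12.61 in H460 and lay at 11.73 in H1650, a difference of -0.97 (standard error 0.11, limma adjusted p = 0.000307). The same 3 other BUB3 probe sets gave -0.39, -0.11 and 0.07 for H1650. Of the 30 calls of a line, 12 were of genes with another bright probe set, and in 3 of them, those of CENPN in A549 and of BUB3 in H1975 and H1650, at least 1 such probe set differed in the opposite direction. DSN1 and NSL1, 2 subunits of 1 complex, were called in opposite directions in H1650, by 0.89 and -0.37 (limma adjusted p = 0.000437 and 0.0186). CENPW had the smallest range of all members, 0.12 (limma F test, adjusted p = 0.913).

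These counts per line also moved when 1 array was left out, where the share of all genes was again not counted. In A549 the higher count ran from 0 to 6 and the lower from 0 to 13, each highest without an H1650 array and 0 without the MP array of A549. In H460 the higher count was 0 without either array of H460 and 16 without the MP array of H1650, and the lower count was 0 or 1, with 0 in the former fits. In H1975 the higher count was 0 without its own SP array and 6 without the MP array of H1650, and the lower count was 2 without its own MP array and 11 without the SP array of H1650. In H1650 the higher count was 14 without its SP array and 2 without its MP array, and the lower count 1 and 12. With its brightest probe set BUB3 was lower in H1650 in each of these fits, and CENPH and DSN1 were higher. The probe sets used for BUB3 and CENPH are of the kind that can bind other transcripts. With the H1650 arrays exchanged, which leaves the levels as they were and changes the spread within lines, 24 members passed the F test. The share of all genes that passed it then was not counted.

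**Figure D4:**
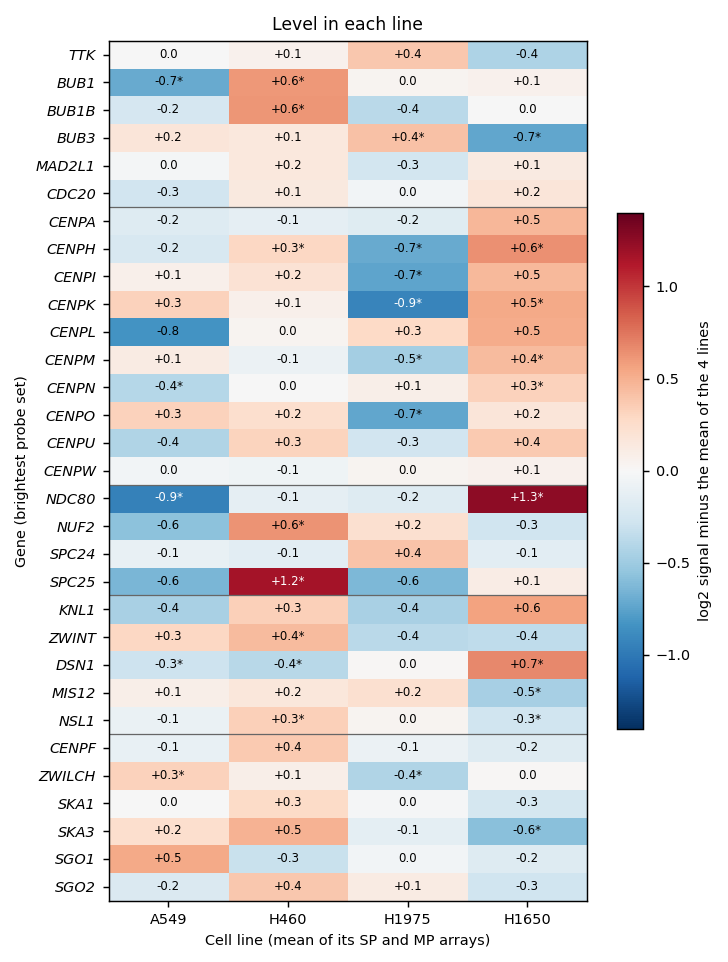
Level of each of the 31 genes (rows) in each cell line (columns) minus the mean of the 4 lines, on the log2 scale, where a line's level is the mean of its SP and MP arrays. Stars mark a limma adjusted p under 0.05 for that line against the other 3, and NDC80 in H1650 and SPC25 in H460 stand out as the highest cells.

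Other genes of the same machinery were taken from lists. Of 22 further kinetochore genes 19 were tested. Their median of the 3-line mean was 0.18 and their median log2 ratio in H1650 -0.23, both of smaller size than those of the 31 genes, and 10 of 19 were higher in the 3 lines and lower in H1650. Of these 1 was called in the 3 lines, HJURP, the chaperone that loads CENPA, with a mean of 1.06 (limma adjusted p = 0.0472) and -0.73 in H1650. CENPE, a kinetochore motor, and CENPC, which bridges CENPA and MIS12, had 0.84 and 0.64 with -0.59 and -0.70 in H1650. Of 18 tested genes of the anaphase-promoting complex and its regulators, the median was 0.0029, 0 were called in the 3 lines and 4 were higher in them and lower in H1650. FBXO5, an inhibitor of the complex, had 0.79 in the 3 lines (limma adjusted p = 0.0614) and -0.96 in H1650. Its interaction with H1650 was called (limma adjusted p = 0.0454), where 0.26% of all genes were called lower. With the H1650 arrays exchanged, 0% of all genes were called for this interaction, so the call of FBXO5 rests on the deposited labels. UBE2C, the enzyme that supplies the complex with ubiquitin, had 0.71 and -1.10, and FZR1, an activator, 0.64 and -0.64.

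The 13 genes of cohesin and its regulators had a 3-line median of 0.10. It was 0.34 for 17 transcription regulators of the E2F, DREAM, B-MYB and FOXM1 group and 0.15 for 13 genes of the G1/S transition. In each list 0 genes were called in the 3 lines. For the H1650 interaction, 4, 6 and 5 had an unadjusted limma p under 0.05 in either direction, against 12.1% of all genes. These counts were 9 of 19 for the further kinetochore genes and 4 of 18 for the list of the anaphase-promoting complex. Among the short-lived transcripts given below the count was 3 of 11. Among cohesin genes ESCO1, ESCO2 and WAPL had the largest means, 0.56, 0.52 and 0.41. LIN9 and LIN54, subunits of the MuvB core that reads CHR letters, had 0.87 and 0.79 in the 3 lines, and in H1650 LIN9 had 0.40 and LIN54 -0.78. E2F7, a repressor of the E2F family, had 0.79 and -0.88. In G1/S, CDC25A had 0.61, CCNE2 0.56 and CDC6 0.53 in the 3 lines and -0.69, -0.46 and -0.41 in H1650. For comparison, 11 genes of short-lived transcripts had a median of -0.0025, with JUNB at -0.40, IER2 at -0.37 and IER3 at 0.42. The ratio of 3′ to 5′ probe sets of ACTB and GAPDH, a sign of RNA integrity, differed between SP and MP by between -0.16 and 0.066 on the log2 scale in the 4 lines, and its part in the results was not tested.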

How the data were processed

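RNA of SP and MP cells of 4 lung cancer lines was hybridised to 8 Human Genome U133 Plus 2.0 arrays. MAS5 signals on the log2 scale were deposited by the authors, and per the labels' processing notes GCOS 1.4 and MAS5 were used. Scaling to 1 trimmed mean per array precedes the log2 step, and nothing holds dim signals above a floor, so dim probe sets have unsteady ratios. Array medians lay between 5.92 and 6.29, and the number of arrays limits the precision.

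Of 54675 probe sets, 41097 have 1 gene symbol, 1801 several and 11777 none in the platform annotation, and a gene's brightest probe set with 1 symbol stands for it. limma 3.58.1 in R 4.3.3 (lmFit, eBayes with trend) took the 12300 genes with a mean signal no lower than the median of 6.01, with line and population as terms and p-values adjusted over all of them (Benjamini-Hochberg). It was also run on simulated data, whose outcome is not given here and is not used as support for any call. The line pairs the arrays: deviations from the population means correlated within a line with r from 0.887 to 0.940. The genes, the lists, the fit without H1650 and the tests were chosen with earlier results of these data known. Every listed gene is named, and of each other list the 3 with the largest size, in either direction, of the mean log2 ratio over A549, H460 and H1975, while marker lists are given as sums with those at least 2-fold apart in H1650 or H1975 named after seeing their values; promoters follow the 2 largest and 2 smallest H1650 differences among genes with a RefSeq promoter. Alternatives were a floor of 32, a pseudocount of 16, quantile normalization, arrays moved to the same median, no filter, the mean over a gene's probe sets, no trend, no block and leaving out lines or arrays. Exchanging the 2 H1650 arrays was added after seeing the data.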

Additional observations from a re-analysis of the deposited data

Results flagged for a closer look

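TTK, the checkpoint kinase, had a log2 difference between SP and MP of -0.92 in H1650, far from the values of 0.97, 0.85 and 0.90 in the other lines, and its gap to the nearest line took up more of the range than Dixon's test allows for 4 values. The lines of the 31 genes were examined for such a gap in 31 groups, of which 1 was past the limit. Chance flags about 1 in 20 groups, so 1 flag in 31 is not beyond what chance gives. The SP effect in H1650 minus that in the other 3 lines rests on the same 4 values, so it is not further support. It was -1.83 for TTK (limma adjusted p = 0.0454). Over 10 alternatives to this fit its adjusted p ran from 0.0141 to 0.225. It rests on 1 pair of arrays in H1650, whose own spread is unknown, and on the deposited labels of those arrays. ABCG2 had a log2 ratio of -0.70 in H1650, and the labelling was not tested. With the 2 arrays exchanged, a setting chosen after seeing the data, TTK had 0.92 in H1650, between the values of the other lines, and a difference of 0.019, and KNL1 was the 1 gene past the limit of Dixon's test.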

How the results depend on the processing

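The direction of the median was the same under each alternative run in the 4-line and the 3-line comparison. Counts of called members moved with most choices in the 3-line test and for the SP effect of H1650. They moved in 2 settings in the 4-line test and in none for the SP effects of A549, H460 and H1975. In the 3-line test, 2 members were called in the fit given above, 4 with a pseudocount of 16 or with arrays moved to the same median, 1 with quantile normalization or no filter, and 0 without the variance trend or, as an unpaired fit, with no block. Without the replicate block the 4-line test also called 0. Leaving out 1 line gave 0 to 2 calls in the 3-line test and 0 to 2 in the 4-line test, where 17 to 31 means were above 0 (17 without H1975). For the SP effect of H1650 against the other lines, 1 member was called, 2 with a floor of 32, 3 with a pseudocount or the same median, 0 with quantile normalization, no filter or no trend, and 0 to 2 with a line left out. With the mean over all probe sets of a gene, 3 members were higher in SP of H1650. That setting turned BUB1 to -0.27 and NSL1 to -0.15 in the 3 lines, the H1650 effect of BUB1 to 0.35, of CENPN to 0.028 and of NSL1 to 0.45, and the A549 level of CENPN to 0.21. In the 3-line fit with a line left out, NSL1 ran from -0.060 to 0.12, with -0.0031 without H460, MAD2L1 was -0.040, CENPN -0.0038, CENPW -0.028 and DSN1 -0.033 without H1975. For levels between lines, 17 members were called, 5 without the trend and 6 to 25 with an array left out. Members lower in A549 were 4, with 7 under the floor or the pseudocount, 8 with the same median, 2 with mean probe sets or no trend and 0 to 13 with an array left out, and those higher there were 1, with 0 under the same median, no filter and no trend and 0 to 6 with an array left out. Higher in H460 were 7, with 11 under the same median, 2 with no trend and 0 to 16 with an array left out, and lower there were 1, with 0 under the same median and 0 to 1 with an array left out. Higher in H1975 were 1, with 0 for mean probe sets and 0 to 6 with an array left out, and lower there were 6, with 2 to 11. Higher in H1650 were 6, with 2 to 14, and lower there were 4, with 2 without the trend and 1 to 12. The cause of these moves was not tested, and the shares of all genes under these alternatives were not counted. With the H1650 arrays exchanged, a setting chosen after seeing the data, 31 members were higher in SP of H1650, 7 were called in the 4-line test and 0 for the SP effect of H1650, whose value turned to 0.019 for TTK, 0.19 for BUB3, 0.059 for MAD2L1, 0.013 for CDC20, 0.21 for CENPH, 0.17 for CENPK, 0.063 for CENPN, 0.043 for CENPW, 0.17 for NDC80, 0.16 for NUF2, 0.12 for SPC24, 0.21 for SPC25, 0.10 for KNL1, 0.041 for ZWINT, 0.058 for DSN1, 0.081 for NSL1, 0.052 for CENPF, 0.75 for SKA1, 0.44 for SKA3 and 0.63 for SGO1. That setting also gave 6 members higher and 12 lower in A549, 12 higher in H460, 4 higher and 11 lower in H1975 and 11 higher in H1650. Shares of all genes were not counted for these levels. Moving arrays to the same median shifted the median of all genes' log2 ratios by -0.16 in A549 and 0.17 in H1975, and members higher in SP then numbered 23 and 31.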
